A study of Mus musculus with 6 samples.

Results

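A set of 10 genes of DNA methylation and of Polycomb silencing were followed in the villus epithelium of the mouse duodenum: the DNA methyltransferases *Dnmt1*, *Dnmt3a* and *Dnmt3b*, their guide *Uhrf1*, the 5-methylcytosine dioxygenases *Tet1*, *Tet2* and *Tet3*, and the PRC2 core genes *Ezh2*, *Suz12* and *Eed*. They were chosen by name, as the rows whose Ensembl identifier carries one of these symbols, and all 10 of 10 were found among the 20409 features of the count table. Bulk RNA-seq was made from 3 double mutant and 3 wild-type mice, 1 library per mouse. The double mutant mice carried Smad4 fl/fl and Ctnnb1 exon3 fl/wt, so that Cre removes Smad4, a transducer of BMP and TGF-beta signals, and makes beta-catenin, the effector of Wnt, resistant to degradation. Cre was driven by Villin-CreERT2, which acts across the whole intestinal epithelium and not in 1 cell type. The double mutant mice received tamoxifen at 0.05 g/kg on 4 consecutive days and were analysed 7 days after induction. The wild-type mice were age-matched, uninjected littermates on the same C57BL/6-enriched background, so mutation, Cre activity and tamoxifen cannot be told apart. Their age and the alleles they carried are not given in the sources used here. In each group replicate 1 was male and replicates 2 and 3 were female.

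DNA methylation and Polycomb are a pair of systems that keep genes silent through cell division. Dnmt3a and Dnmt3b place methyl groups on unmethylated CpG sites, Uhrf1 recognises the hemimethylated CpG left behind the replication fork and brings Dnmt1 to copy the mark, and the Tet enzymes oxidise it as a step towards its removal. Ezh2, with Suz12 and Eed, forms the PRC2 complex that methylates lysine 27 of histone H3. In the intestine the copying machinery is most used in the dividing crypt cells, whereas villus cells have left the cell cycle.

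The libraries held 19678507 to 26337318 counts, at which 3 counts correspond to 0.125 to 0.163 normalized counts (CPM, the share of the library per 1e+06 counts, scaled by TMM factors). *Smad4* was lower in every double mutant mouse, at 26.0, 36.8 and 32.1 CPM against 120, 180 and 144 CPM. *Ctnnb1*, whose targeted exon is not resolved by a count per gene, overlapped between the groups. Wild-type mouse 1 stood apart from the other wild-type mice. Its summed markers were 125 CPM for goblet cells, against 11590 and 11015 CPM for wild-type mouse 2 and mouse 3 and 4654 to 5052 CPM in double mutant villi. Those of Paneth cells were 5.58 CPM, against 603 and 1015 CPM and 126 to 193 CPM. Those of G2 and M phase genes were 22.3 CPM, against 64.3 and 69.4 CPM. It was also the only wild-type male, so the fits without it compare female wild-type mice with a mutant group of both sexes. Villus enterocyte markers were high in all 6 libraries, at 40448 to 46863 CPM in wild-type and 25906 to 29233 CPM in double mutant villi. T lymphocyte markers, all 11 of 11 detected, summed to 120 CPM in wild-type mouse 1, to 242 CPM in both other wild-type mice and to 100 to 146 CPM in double mutant villi. The 8 mesenchymal markers in the table summed to 1.96 to 3.74 CPM and 3.65 to 7.50 CPM, with *Col1a1*, *Col1a2*, *Col3a1* and *Pdgfra* at 0 to 8 counts. *Vim* had 35, 42 and 55 counts in wild-type and 66, 81 and 59 counts in double mutant villi, and *Acta2* and *Des* had 40 and 35 counts in double mutant mouse 1 and at most 8 in any other mouse. These genes were named after their values were seen, and the part of the mesenchymal markers in the results was not tested. The 7 endothelial and myeloid markers in the table summed to 1.33 to 2.28 CPM and 2.27 to 2.47 CPM.

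*Dnmt1*, *Uhrf1* and *Ezh2* are commonly described as targets of E2F, the transcription factor family that switches on S phase genes, so the promoter windows of the 10 genes (RefSeq, GRCm38.p6, 250 bases before to 50 bases after each start) were searched on both strands for 4 E2F-type words, TTTCCCGC, TTTCGCGC, TTTGCCGC and TTTGGCGC. These are shown because they set *Dnmt1*, *Uhrf1*, *Ezh2* and *Suz12* apart from the other genes by letters alone. Each line is written 5′ to 3′ on the strand of the gene, with the 8 letters in capitals and up to 10 bases on either side. The genes read on the minus strand are *Dnmt1* and *Ezh2*, and the first *Dnmt1* word is read on the opposite strand.
Dnmt1, 219 bases before the start (chr9:20952825-20952852): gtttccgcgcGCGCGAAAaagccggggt
Dnmt1, 34 bases after the start (chr9:20952574-20952600): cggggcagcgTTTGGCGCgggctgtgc
Uhrf1, 185 bases before the start (chr17:56304118-56304145): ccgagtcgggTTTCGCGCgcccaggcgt
Ezh2, 4 bases after the start (chr6:47595010-47595037): ggttgctgcgTTTGGCGCtcggtccggt
Suz12, 219 bases before the start (chr11:79992877-79992904): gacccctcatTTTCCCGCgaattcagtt

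A word was found at 4 of the 15 listed start sites of the 10 genes (26.7%), at 8 of the 19 start sites of the 17 DNA replication genes that were matched (42.1%), at 3.80% of the promoters of tested genes and at 2.26% of all 32851 promoters. For *Dnmt3a*, *Dnmt3b*, *Tet1*, *Tet2*, *Tet3* and *Eed* these letters are not in this window. The 15 windows held a median of 30 CpG sites, from 2 at one *Dnmt1* start to 57 at *Tet2*, against a median of 20 in the windows of tested genes. These positions are of another genome build than the counts, which were made on mm9, and a match is a match of letters only.

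Of the 9 genes that passed the filter on low counts, 4 were higher in double mutant villi (*Dnmt1*, *Uhrf1*, *Dnmt3b* and *Ezh2*), 2 were lower (*Dnmt3a* and *Tet2*), and *Tet3*, *Suz12* and *Eed* did not pass an adjusted p of 0.05 in edgeR's quasi-likelihood test. Among all 13346 genes tested, 36.8% were called, 19.7% higher and 17.0% lower. The values of the 2 groups did not overlap for the same 6 of 9 genes, against 52.4% of all genes tested. At the study's threshold of a log2 fold change of 2, which 708 genes (5.30% of all) reached together with the adjusted p, edgeR called 0 of the 9 genes. The study lists more differentially expressed genes than these 708, so its list was not reproduced here. For the 9 genes edgeR gave 0 also at an unadjusted p under 0.05, as did DESeq2, and limma-voom called 1, *Uhrf1*. In edgeR this count depended on the setting. Library size alone called *Dnmt3b* (2.12) and *Uhrf1* (2.06), upper-quartile factors called *Dnmt3b* (2.01), and the replicate block and sex as a covariate called *Uhrf1* (2.15 and 2.11). Among the fits with a mouse removed, *Dnmt3b* reached 2.15 without wild-type mouse 2 (adjusted p 0.0161) and *Uhrf1* 2.49 without wild-type mouse 3 (adjusted p 0.0232). Without wild-type mouse 3 *Dnmt3b* was at 2.00 (adjusted p 0.0211), a rounded value that may lie on either side of the threshold. The 6 genes called without a fold threshold were the same without wild-type mouse 1. In bulk epithelium, fewer cells of a type and less RNA per cell cannot be told apart.

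**Figure D1:**
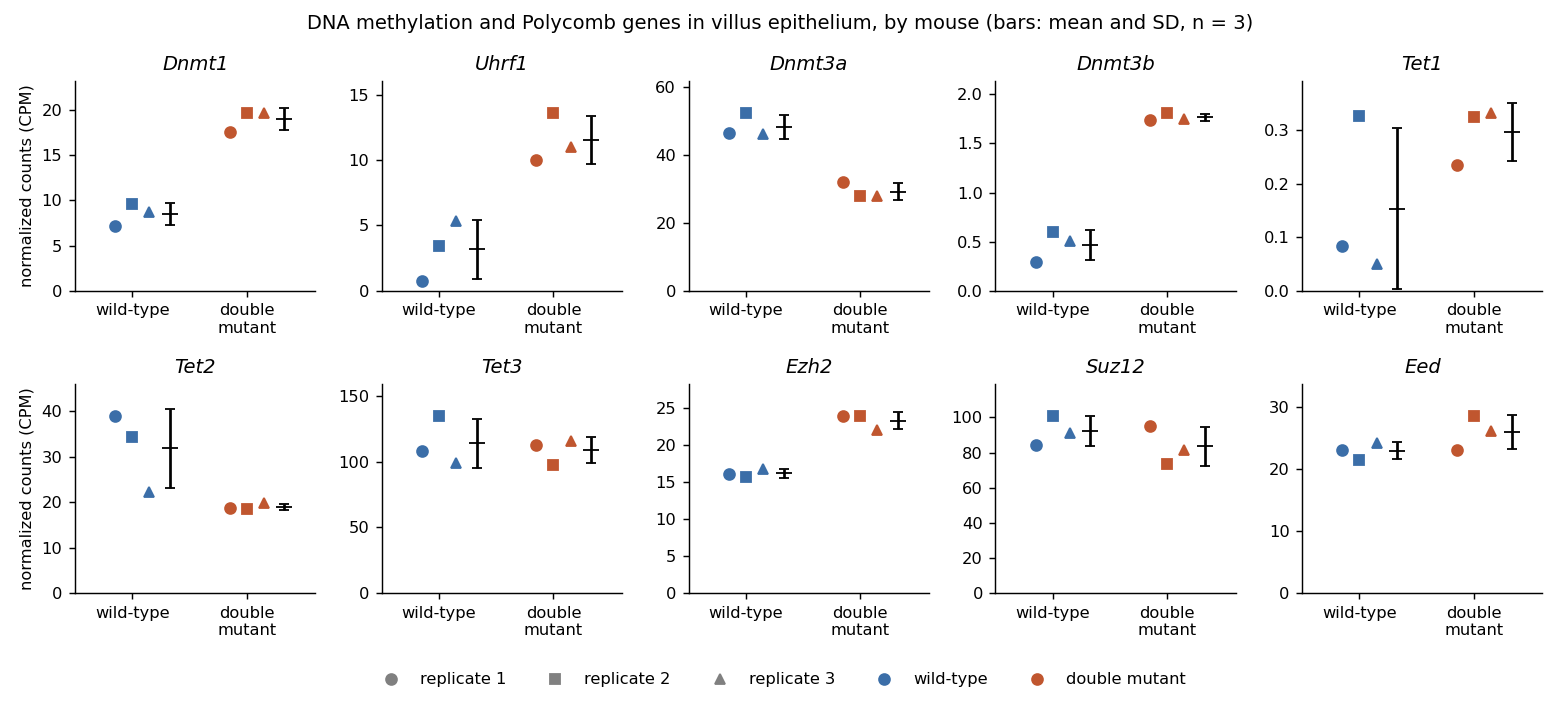
Normalized counts (CPM, vertical axes from 0) of the 10 genes in each of the 6 mice, with symbols for replicate number and bars for the group mean and SD (n = 3). *Dnmt1*, *Uhrf1*, *Dnmt3b* and *Ezh2* lie higher in every double mutant mouse, *Dnmt3a* and *Tet2* lower, and *Tet3*, *Suz12*, *Eed* and *Tet1* overlap between the groups.

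*Dnmt1* (ENSMUSG00000004099), the methyltransferase that copies the mark onto the new strand, lies on the minus strand of chr9:20711650-20757317 in mm9. Its level was 7.16, 9.57 and 8.74 CPM in the wild-type mice and 17.6, 19.7 and 19.7 CPM in the double mutant mice. The double mutant mice were all above the highest wild-type mouse and lay close together. *Dnmt1* rose from 8.49 ± 1.22 to 19.0 ± 1.23 CPM (SD, n = 3), a log2 change of 1.16 ± 0.162 (SE) with an adjusted p of 0.00109 in edgeR. Its 95% confidence interval ran from 0.80 to 1.53, and the call held in all 6 fits with a mouse removed.

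*Uhrf1* (ENSMUSG00000001228), the reader of hemimethylated CpG sites that recruits Dnmt1, lies on the plus strand of chr17:56442744-56462909. It had 0.749, 3.42 and 5.30 CPM in wild-type villi, from 18, 63 and 105 counts, and 9.99, 13.6 and 11.0 CPM in double mutant villi, from 213, 293 and 233 counts. The groups did not overlap, but the wild-type mice themselves were spread widely, with mouse 1 the lowest. The mean rose from 3.16 ± 2.29 to 11.5 ± 1.84 CPM, a log2 change of 1.88 ± 0.585 (SE, 95% confidence interval 0.49 to 3.27) with an adjusted p of 0.0430 in edgeR. Without wild-type mouse 1, in which the goblet, Paneth and cell cycle markers were also low, the log2 change was 1.40 with an adjusted p of 0.00189, and without wild-type mouse 3 it was 2.49 with an adjusted p of 0.0232. The call was kept in 2 of 6 fits with a mouse removed. It was lost without wild-type mouse 2 (adjusted p 0.115) and without double mutant mouse 1, 2 or 3 (0.0827, 0.126 and 0.0920), and on the table without a filter (0.114). The direction was the same in all of them.

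*Dnmt3a* (ENSMUSG00000020661), a methyltransferase that sets new methyl groups, lies on the plus strand of chr12:3806007-3914443. Its level was 46.6, 52.4 and 46.1 CPM in wild-type and 32.0, 27.8 and 27.9 CPM in double mutant villi. Every double mutant mouse was below every wild-type mouse. *Dnmt3a* fell from 48.4 ± 3.51 to 29.2 ± 2.42 CPM, a log2 change of -0.73 ± 0.119 (SE, 95% confidence interval -1.00 to -0.45) and an adjusted p of 0.00227 in edgeR, and the call held in 6 of 6 fits with a mouse removed.

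*Dnmt3b* (ENSMUSG00000027478), the other methyltransferase of this kind, lies on the plus strand of chr2:153475186-153513466 and moved the other way. It was scarce, with 7, 11 and 10 counts in wild-type villi (0.291, 0.598 and 0.505 CPM) and 37, 39 and 37 counts in double mutant villi (1.74, 1.81 and 1.75 CPM). All double mutant values were above all wild-type values. The mean rose from 0.465 ± 0.157 to 1.77 ± 0.0372 CPM, a log2 change of 1.93 ± 0.406 (SE, 95% confidence interval 1.01 to 2.86) with an adjusted p of 0.00685 in edgeR, and the call held in 6 of 6 fits with a mouse removed, at 1.67 without wild-type mouse 1. *Dnmt3b* passed the filter through its double mutant counts, and with at least 10 counts in every library it was not tested. Features on the opposite strand inside *Dnmt3a* and *Dnmt3b* had at most 6 and 4 counts in any mouse. The strand setting of the counting is not given in the sources used here.

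*Tet2* (ENSMUSG00000040943), a dioxygenase of 5-methylcytosine, lies on the minus strand of chr3:133126643-133207354. It was at 39.0, 34.4 and 22.2 CPM in wild-type villi and at 18.7, 18.4 and 19.8 CPM in double mutant villi. The groups were separate, but wild-type mouse 3 was closer to the double mutant mice than to wild-type mice 1 and 2. *Tet2* fell from 31.9 ± 8.65 to 19.0 ± 0.758 CPM, a log2 change of -0.75 ± 0.199 (SE, 95% confidence interval -1.20 to -0.30) and an adjusted p of 0.0186 in edgeR. The call was kept in 2 of 6 fits with a mouse removed, and the adjusted p was 0.0619 without wild-type mouse 2 and 0.0591, 0.0632 and 0.0520 without double mutant mouse 1, 2 and 3.

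*Tet3* (ENSMUSG00000034832, minus strand of chr6:83312367-83391672), the Tet gene with the highest level in these villi, had 108, 135 and 98.9 CPM in wild-type and 113, 97.4 and 116 CPM in double mutant villi. The 2 groups overlapped. The log2 fold change was -0.07 ± 0.142 (SE) with an adjusted p of 0.728 in edgeR, and the 95% confidence interval of -0.39 to 0.25 bounds the difference but does not show that the levels were equal. Scaling by library size alone gave 0.12, with the opposite sign, also short of the threshold. *Tet1* (ENSMUSG00000047146, minus strand of chr10:62267318-62361866), the third dioxygenase, had 2, 6 and 1 counts in wild-type and 5, 7 and 7 counts in double mutant villi. It did not pass the filter, and a difference was not detectable at this depth.

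*Ezh2* (ENSMUSG00000029687), the catalytic subunit of PRC2, lies on the minus strand of chr6:47480273-47545340. Its level was 16.1, 15.7 and 16.8 CPM in wild-type and 23.9, 24.0 and 22.0 CPM in double mutant villi. Both groups were tight and did not overlap. *Ezh2* rose from 16.2 ± 0.563 to 23.3 ± 1.12 CPM, a log2 change of 0.53 ± 0.122 (SE, 95% confidence interval 0.25 to 0.80) and an adjusted p of 0.0104 in edgeR, and the call held in 6 of 6 fits with a mouse removed.

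*Suz12* (ENSMUSG00000017548, plus strand of chr11:79806608-79847625), the subunit that holds PRC2 together, had 84.1, 101 and 91.3 CPM in wild-type and 95.2, 73.5 and 81.7 CPM in double mutant villi. *Eed* (ENSMUSG00000030619, minus strand of chr7:97103166-97129493), the subunit that binds methylated lysine 27, had 23.1, 21.5 and 24.2 CPM against 23.1, 28.6 and 26.1 CPM. Both genes overlapped between the groups. The log2 fold change of *Suz12* was -0.14 ± 0.131 (SE, 95% confidence interval -0.44 to 0.16) with an adjusted p of 0.422 in edgeR, and it was 0.05 with library size alone. That of *Eed* was 0.18 ± 0.130 (SE, 95% confidence interval -0.12 to 0.48) with an adjusted p of 0.310. A lncRNA on the opposite strand inside *Suz12* had 7 to 15 counts and another inside *Ezh2* 0 to 3.

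**Figure D2:**
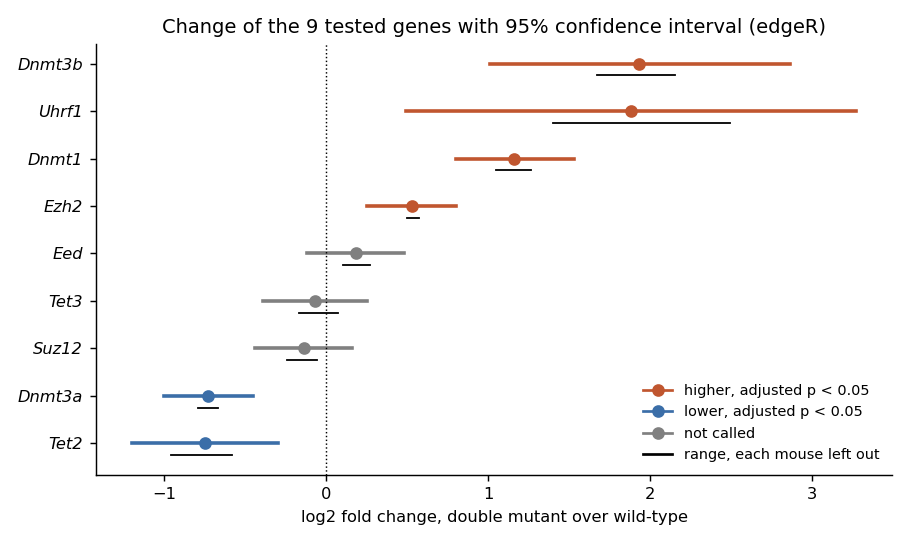
Log2 fold change (horizontal axis, double mutant over wild-type) of the 9 tested genes, with points for the edgeR estimate and bars for its 95% confidence interval. The interval is widest for *Uhrf1*, at 0.49 to 3.27, and those of *Tet3*, *Suz12* and *Eed* cross 0.

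Markers of dividing cells moved in the same comparison. The summed level of 20 DNA replication genes was 61.5, 84.1 and 86.2 CPM in wild-type and 173, 172 and 174 CPM in double mutant villi, and 16 of the 20 were called in edgeR, each of them higher. Of 12 G2 and M phase genes, whose sum was 22.3 to 69.4 CPM in wild-type and 136 to 183 CPM in double mutant villi, 10 were called, each higher. The 7 crypt stem cell markers summed to 47.4 to 140 CPM and 309 to 402 CPM. The part of these markers in the rise of *Dnmt1*, *Uhrf1*, *Dnmt3b* and *Ezh2* was not tested. Of 10 villus enterocyte markers 5 were lower and 1 higher (60.0% called), and of 11 T lymphocyte markers 3 were called, each lower (27.3%). Among all genes tested 36.8% were called, 19.7% higher and 17.0% lower. The part of the enterocyte and T lymphocyte markers in the fall of *Dnmt3a* and *Tet2* was not tested.

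Levels of different genes were compared per length, as RPKM (CPM divided by the kilobases in the union of exons). In wild-type villi *Suz12* was the highest at 18.6 ± 1.75 RPKM (SD, n = 3), followed by *Eed* at 10.3 ± 0.617 and *Tet3* at 10.3 ± 1.71 RPKM. *Tet2* had 3.46 ± 0.940, *Dnmt3a* 2.91 ± 0.211 and *Ezh2* 2.61 ± 0.0908 RPKM. *Dnmt1* had 1.61 ± 0.232, *Uhrf1* 0.742 ± 0.537, *Dnmt3b* 0.0910 ± 0.0308 and *Tet1* 0.0104 ± 0.0102 RPKM. *Eed* and *Tet3* did not differ beyond their spread, nor did *Tet2* and *Dnmt3a*. The catalytic subunit of PRC2 thus had a lower mRNA level per length than its core partners, and *Dnmt1* a lower one than *Dnmt3a*.

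In double mutant villi the order of the middle of this range differed. *Suz12*, *Eed* and *Tet3* were again the highest, at 16.9 ± 2.22, 11.7 ± 1.24 and 9.80 ± 0.889 RPKM. They were followed by *Ezh2* at 3.76 ± 0.180, *Dnmt1* at 3.61 ± 0.233 and *Uhrf1* at 2.71 ± 0.433 RPKM, and then by *Tet2* at 2.06 ± 0.0823 and *Dnmt3a* at 1.76 ± 0.145 RPKM. With the exon union, *Ezh2* and *Dnmt1* did not differ beyond their spread. *Dnmt3b*, at 0.346 ± 0.00728 RPKM, stayed below *Dnmt3a*, and *Tet1* was at 0.0202 ± 0.00368 RPKM. With the length of the longest coding transcript in place of the exon union, a choice made after the data were seen, *Dnmt1* was likewise below *Dnmt3a* in wild-type villi (1.61 and 4.99 RPKM) and above it in double mutant villi (3.61 and 3.02 RPKM). With that length, *Ezh2* was above *Dnmt3a* and *Tet2* in wild-type villi, at 6.09, 4.99 and 3.47 RPKM, with *Dnmt3a* above *Tet2* there and in double mutant villi (3.02 and 2.07 RPKM). *Ezh2* was then also above *Dnmt1* in double mutant villi, at 8.78 and 3.61 RPKM.

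**Figure D3:**
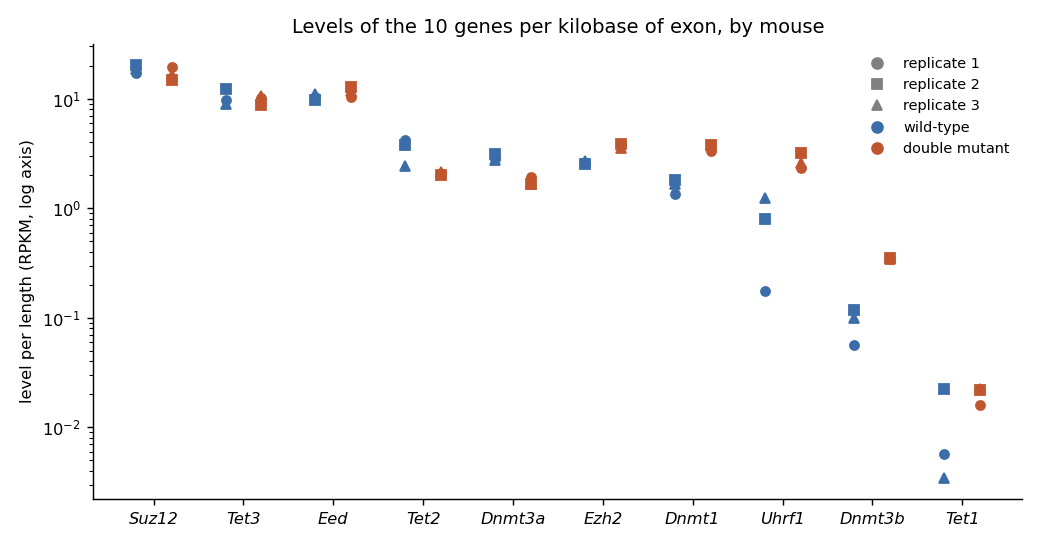
Level per length (RPKM by exon union, log axis) of the 10 genes in wild-type and double mutant villi, with a point per mouse, ordered by level. *Suz12*, *Eed* and *Tet3* are the highest in both groups, and *Dnmt3b* and *Tet1* the lowest.

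Ratios within a library do not depend on the scaling between libraries, and 9 were compared by an exact two-sided permutation test over the mice, in which 3 against 3 cannot give a p below 0.1. The ratio of *Dnmt3b* to *Dnmt3a* RPKM was 0.0204, 0.0372 and 0.0357 in wild-type and 0.177, 0.212 and 0.205 in double mutant villi. The groups did not overlap, and the mean log2 ratio rose from -5.06 to -2.34, a difference of 2.72 (exact permutation p = 0.1, 0.15 after Benjamini-Hochberg adjustment over the 9 ratios). *Dnmt3a* was the higher of the de novo pair in all 6 mice.

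The ratio of *Ezh2* to *Ezh1*, the gene of the alternative catalytic subunit that is typical of resting cells, was 0.463, 0.424 and 0.421 in wild-type and 0.645, 0.776 and 0.674 in double mutant villi. On the log2 scale this was a difference of 0.68, again without overlap (exact permutation p = 0.1, adjusted 0.15). *Ezh1* itself had 44.6 ± 3.06 and 40.2 ± 3.79 CPM, a log2 change of -0.15 ± 0.120 (SE, 95% confidence interval -0.42 to 0.13) and an adjusted p of 0.367 in edgeR. Against its own PRC2 partners, *Ezh2* rose by 0.67 relative to *Suz12* and by 0.35 relative to *Eed* in mean log2 ratio, with no overlap in either (both exact permutation p = 0.1, adjusted 0.15).

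The ratio of *Uhrf1* to *Dnmt1* was 0.129, 0.442 and 0.750 in wild-type and 0.702, 0.850 and 0.694 in double mutant villi. Wild-type mouse 3 lay among the double mutant mice, and mouse 1 was far below the rest. The difference in mean log2 ratio was 1.09 (exact permutation p = 0.3, adjusted 0.3), and it was 0.37 without wild-type mouse 1 and 1.64 without wild-type mouse 3. The ratio of summed *Tet* to summed *Dnmt* RPKM was 3.31, 3.14 and 2.51 in wild-type and 2.18, 1.87 and 2.19 in double mutant villi, a log2 difference of -0.52 (exact permutation p = 0.1, adjusted 0.15). This value rests on the lengths, since it was -0.27 with the longest coding transcript and 0.01 with counts not divided by length.

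*Dnmt1*, *Ezh2* and *Uhrf1* were also set against the summed RPKM of the 20 replication genes in the same library. The log2 ratio of *Dnmt1* was -3.89, -3.80 and -3.99 in wild-type and -3.92, -3.76 and -3.76 in double mutant villi. These values overlapped, with means of -3.89 and -3.81 and a difference of 0.08 (exact permutation p = 0.3, adjusted 0.3). That of *Ezh2* was -2.96, -3.32 and -3.29 against -3.71, -3.71 and -3.83, lower in every double mutant mouse, with a difference of -0.56 (exact permutation p = 0.1, adjusted 0.15). That of *Uhrf1* was -6.84, -4.97 and -4.41 against -4.43, -3.99 and -4.28, overlapping, with a difference of 1.17 (exact permutation p = 0.2, adjusted 0.257) that became 0.46 without wild-type mouse 1 and 1.67 without wild-type mouse 3.

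**Figure D4:**
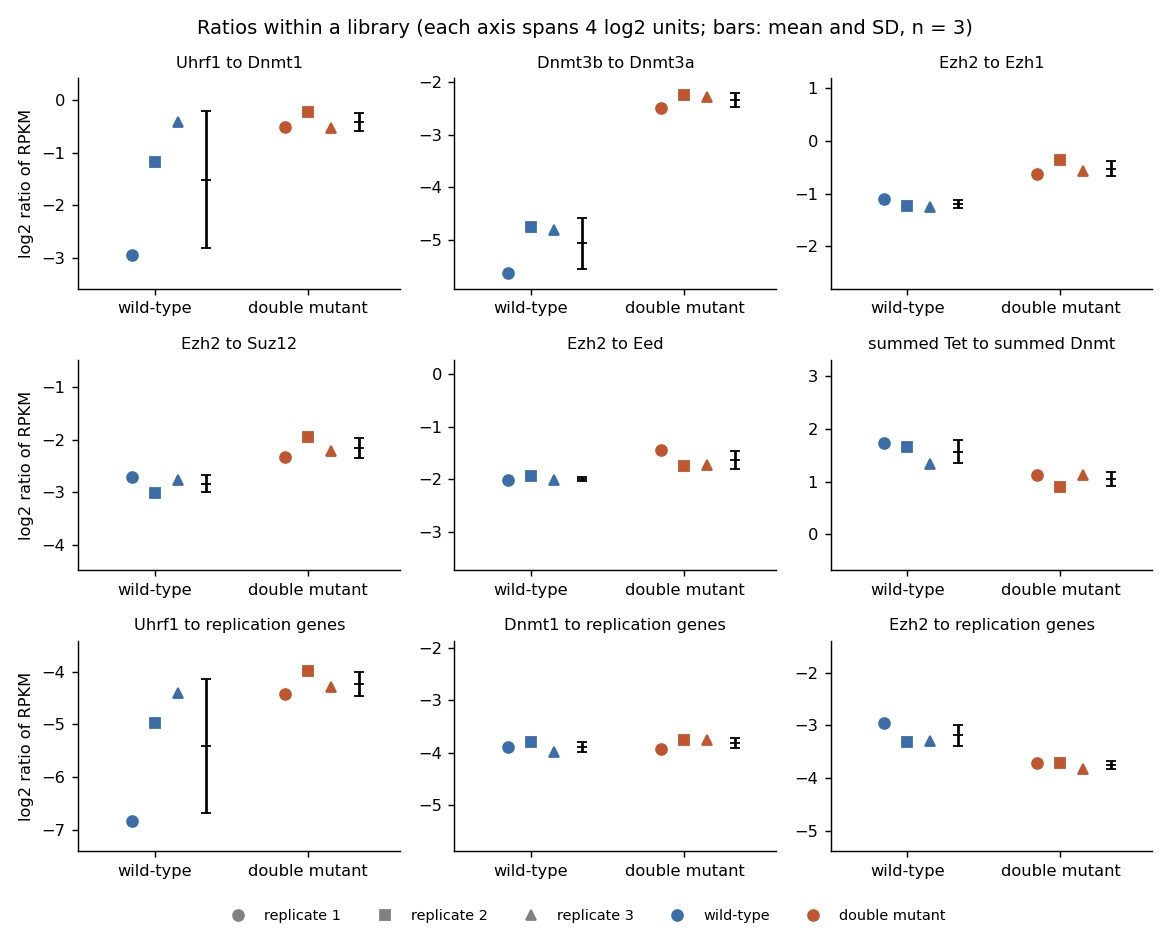
Log2 ratios of RPKM within a library for the 9 pairs, 1 point per mouse with the group mean and SD (n = 3), each vertical axis spanning 4 log2 units. *Dnmt3b* to *Dnmt3a* shows the widest gap between the groups, at 2.72, and *Dnmt1* to the replication genes the narrowest, at 0.08.

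The other subunits and enzymes of both systems were read from 4 lists, of which 76 genes were in the table and 71 were tested. Of these, 18 were higher and 9 lower in edgeR, 38.0% in all, close to the 36.8% of all genes. Their median log2 fold change was 0.03, against 0.02 for all genes.

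Of the 29 tested partners of DNA methylation, 8 were higher and 5 lower, 44.8% against 36.8% of all genes, with a median log2 fold change of 0.10. *Cdca7*, which with Hells forms a nucleosome remodeller needed for methylation of packed DNA, had 7.12, 8.15 and 9.29 CPM in wild-type and 40.5, 37.2 and 43.5 CPM in double mutant villi, far apart. It rose by a log2 fold change of 2.30 ± 0.147 (SE) with an adjusted p of 4.43e-05 in edgeR. *Hells*, the remodeller itself, rose from 3.13 ± 0.450 to 9.15 ± 0.973 CPM (log2 change 1.55, adjusted p 0.000968 in edgeR). *Cdca7l*, a paralog of *Cdca7*, rose from 1.72 ± 1.01 to 4.90 ± 0.690 CPM (log2 change 1.51, adjusted p 0.0260), a call kept in 2 of 6 fits with a mouse removed, with log2 changes of 1.13 without wild-type mouse 1 and 2.01 without wild-type mouse 3. *Uhrf2*, the paralog of *Uhrf1*, had 18.1 ± 0.854 and 19.4 ± 2.28 CPM, and its log2 fold change of 0.10 had a 95% confidence interval of -0.22 to 0.42 and an adjusted p of 0.607. *Dnmt3l*, a cofactor of new methylation, was not analysed here.

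Lower partners included the damage-response genes *Gadd45g* and *Gadd45a*, which have been linked to active demethylation. *Gadd45g* had 24.6, 13.0 and 14.4 CPM in wild-type and 1.74, 3.80 and 3.75 CPM in double mutant villi, and fell by 2.49 on the log2 scale (adjusted p 0.00154 in edgeR), with a log2 change of -2.15 without wild-type mouse 1. *Gadd45a* fell from 64.2 ± 3.63 to 32.0 ± 6.11 CPM (log2 change -1.01, adjusted p 0.00165). *Ahcyl1*, a relative of the enzyme that clears S-adenosylhomocysteine after each methyl transfer, fell from 555 ± 52.0 to 345 ± 58.0 CPM (log2 change -0.69, adjusted p 0.00699).

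Around the PRC2 core, 2 of 10 tested partners were higher and 2 lower, 40.0% against 36.8% of all genes. *Rbbp7*, a histone-binding subunit, rose from 32.5 ± 5.32 to 66.7 ± 4.66 CPM (log2 change 1.04, adjusted p 0.00101 in edgeR). The Polycomb-like accessory subunits *Mtf2* and *Phf1* went in opposite directions. *Mtf2* rose from 15.5 ± 1.10 to 27.6 ± 5.47 CPM (log2 change 0.83, adjusted p 0.00570), and *Phf1* fell from 52.5 ± 4.28 to 27.7 ± 5.49 CPM (log2 change -0.92, adjusted p 0.00295). *Epop*, listed as *E130012A19Rik*, fell from 5.90 ± 3.00 to 2.05 ± 1.23 CPM (log2 change -1.52, adjusted p 0.0467), a call kept in 2 of 6 fits with a mouse removed and lost with library size alone (0.0686), with upper-quartile factors (0.0574) and without a filter (0.0588).

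Of 25 tested subunits of PRC1, the complex that ubiquitinates histone H2A and compacts Polycomb targets, 7 were higher and 1 lower, 32.0% against 36.8% of all genes. *Scmh1* rose from 3.86 ± 1.23 to 13.2 ± 1.30 CPM (log2 change 1.78, adjusted p 0.00126 in edgeR). *Auts2* and *L3mbtl2*, of variant PRC1 complexes, rose by log2 fold changes of 1.35 (adjusted p 0.0157) and 1.20 (adjusted p 0.00699). Without wild-type mouse 1 the value of *Auts2* was 1.02 (adjusted p 0.00176), and its call was lost without double mutant mouse 1 (adjusted p 0.0550). *Rybp*, also of variant PRC1, fell from 48.9 ± 7.94 to 26.9 ± 3.32 CPM (log2 change -0.86, adjusted p 0.00338).

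Of the 7 tested enzymes that oppose Polycomb, 1 was higher and 1 lower, 28.6% against 36.8% of all genes. *Kdm6b*, a demethylase of the lysine that PRC2 methylates, had 120, 162 and 138 CPM in wild-type and 89.7, 87.9 and 95.1 CPM in double mutant villi, with no overlap, and fell by 0.63 on the log2 scale (adjusted p 0.00622 in edgeR). *Usp16*, which removes ubiquitin from H2A, rose from 69.3 ± 8.09 to 106 ± 7.43 CPM (log2 change 0.61, adjusted p 0.00558). *Kdm6a*, the other demethylase, had 43.6 ± 10.0 and 33.6 ± 4.30 CPM, a log2 change of -0.38 with an adjusted p of 0.146, and without wild-type mouse 1 it was -0.56 with an adjusted p of 0.0134. This X-linked gene was lowest in the male of each group, at 32.2 CPM against 50.8 and 47.9 CPM in wild-type and 29.9 CPM against 32.5 and 38.3 CPM in double mutant villi. With sex as a covariate it was not called, at -0.36 and an adjusted p of 0.0716, nor with the replicate block, at -0.36 and an adjusted p of 0.128.

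**Figure D5:**
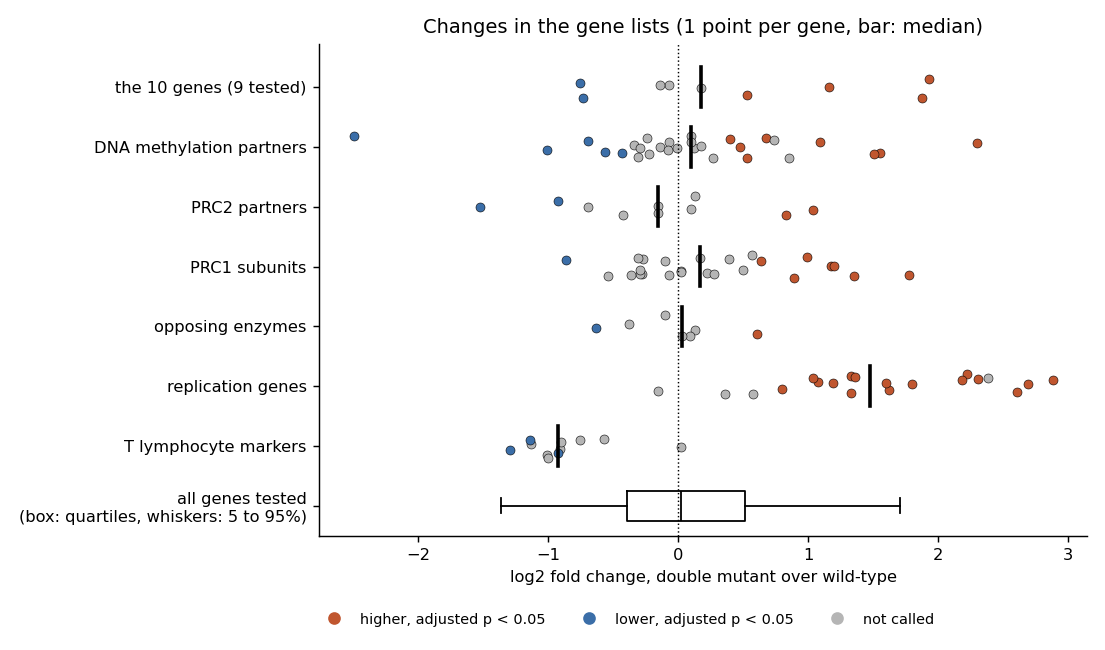
Log2 fold change (horizontal axis, double mutant over wild-type, edgeR) of each tested gene of the 10, the partner lists, the replication genes and the T lymphocyte markers, coloured by call, with bars for medians and a box for the quartiles and whiskers for the 5 to 95% range of all genes tested. Calls in both directions are mixed in each partner list, and the median of the 71 partner genes together is 0.03.

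Genes that these systems are known to keep silent were mostly too scarce to test where they had a row, and those without a row were not analysed here. Of 41 Polycomb targets (HOX genes, *Cdkn2a* and *Cdkn2b*), 17 had a row in the table and 2 of them were tested. *Hoxa3*, an anterior HOX gene, had 14, 5 and 2 counts in wild-type and 26, 36 and 36 counts in double mutant villi, higher in each. Its log2 fold change was 2.21 ± 0.564 (SE) with an adjusted p of 0.0160 in edgeR, a call kept in 3 of 6 fits with a mouse removed, and it was 3.02 without wild-type mouse 1. Of the 17 Polycomb targets with a row, 2 lay higher and 2 lower in every double mutant mouse, whereas the groups did not overlap for 52.4% of all genes tested. Of the HOX genes that did not pass the filter, both whose groups did not overlap are named after their values were seen. *Hoxa2* had 0, 5 and 3 counts in wild-type and 6, 21 and 16 counts in double mutant villi, and *Hoxb13* had 11, 4 and 16 counts against 1, 0 and 1. *Cdkn2b*, a cell cycle inhibitor, fell from 171 ± 13.8 to 110 ± 17.8 CPM (log2 change -0.64, adjusted p 0.00842), and *Cdkn2a*, its neighbour, had 0 to 5 counts in every mouse. Of 16 germline genes that DNA methylation silences in somatic cells, 8 were in the table and 4 were tested. *Tdrd1*, of the piRNA pathway, had 16, 14 and 8 counts in wild-type and 63, 65 and 37 counts in double mutant villi and rose (log2 fold change 2.07, adjusted p 0.00505 in edgeR, kept in 6 of 6 fits with a mouse removed). Both *Hoxa3* and *Tdrd1* passed the filter through their double mutant counts, so for genes this scarce the filter favoured higher calls. The other 3 tested, *Sycp1*, *Sycp3* and *Brdt*, were not called. No methylation of DNA or of histones was measured in these libraries.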

How the data were processed

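Polyadenylated RNA of duodenal villus epithelium, separated by EDTA, was sequenced in 6 mice. Per the labels and methods, the authors used HISAT2 for alignment (mm9) and featureCounts for a read count per gene. The deposited values are these raw counts, neither normalized nor pooled. The annotation, the strand setting and the treatment of multiply mapped reads are not given in the sources used here. Of 20073 Ensembl identifiers, 20032 were matched to symbols and positions in GENCODE M1 of mm9, and 336 further features are numbered transcripts without a position.

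The counts were analysed in R 4.3.3 with edgeR 4.0.16: filterByExpr by group (13346 genes), TMM factors, robust glmQLFit and glmQLFTest without covariates, Benjamini-Hochberg adjustment over all genes tested, and a call at an adjusted p under 0.05. The SE was taken as the size of the log2 fold change over the root of the quasi-likelihood F. CPM and RPKM use TMM-scaled library sizes. Depth was 19678507 to 26337318 counts, and floors cover counting error only, since reads carried no molecular identifiers. Replicates are separate mice.

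The 10 genes and all lists were chosen with earlier results of these data known. Named are the 10 genes, *Uhrf2*, *Dnmt3l*, *Hells*, *Ezh1*, *Kdm6a* and *Kdm6b*, in each partner list the 3 called genes with the largest change in each direction at a mean of at least 1 CPM, and called target genes up to 5 in each direction. *Cdkn2a*, *Hoxa2*, *Hoxb13*, *Sycp1*, *Sycp3* and *Brdt* were named after their values were seen. Alternatives were DESeq2 1.42.0, limma-voom (limma 3.58.1), RLE, upper-quartile and no factors, no filter, at least 10 counts in every library, a log2 fold change of at least 1, a replicate block, sex as a covariate, other lengths, and each mouse left out. The fits were tested on simulated counts with the same dispersion for every gene and no library set apart, which does not cover a case such as wild-type mouse 1. Promoters are from RefSeq on GRCm38.p6, and all 10 genes were matched by symbol.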

Additional observations from a re-analysis of the deposited data

How the results depend on the processing

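The 6 calls among the 10 genes were the same genes with library size alone, with upper-quartile factors and without wild-type mouse 1. Leaving out a mouse gave 1 to 2 of the 10 genes lower (*Tet2* lost in 4 of 6 fits, as was *Uhrf1* among those higher) and 1 to 2 target and germline genes higher. At a log2 fold change of at least 1, 0 of the 9 genes were lower by edgeR, DESeq2 or limma-voom, also at an unadjusted p under 0.05, the partner genes fell to 9 higher and 3 lower, and 0 target and germline genes were lower. With at least 10 counts in every library, 8 of the 10 genes were tested, *Dnmt3b* not among them, and 3 were higher. Under that filter 0 target and germline genes were higher, with 3 tested, and without a filter 2 were lower (*Cdkn2b* and *Hoxb13*). Signs turned for *Tet3* (0.12 with library size alone, 0.01 with upper-quartile factors, and -0.17 to 0.07 over the fits with a mouse removed, 0.07 without wild-type mouse 2 and 0.00 without double mutant mouse 2), *Suz12* (0.05) and *Ezh1* (0.04, both with library size alone), none of which was called. Library size alone moved the median of all genes from 0.02 to 0.22 and the share of higher calls from 53.6% to 72.4%, and upper-quartile factors to 0.11 and 62.1%. Same-numbered mice did not deviate together (r of 0.005, -0.171 and 0.007 for numbers 1, 2 and 3, and 0 of 6 libraries closest to its own number). With 3 mice per group this cannot exclude a pairing by number, and sex was the same at each number in both groups. The study numbers its replicates differently elsewhere, the block depends on the labels' numbers, and the highest r of any of the 9 pairs of mice was 0.141. A replicate block gave 4 of the 10 genes higher and 2 lower, the same 6, and 14 partner genes higher and 7 lower. *Tet1*, at 1 to 7 counts, and *Dnmt3b*, at 7 to 39, are limited by depth.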
